A study of Arabidopsis thaliana with 12 samples.

Results

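Cellobiose, the disaccharide unit of cellulose, was compared with a control without elicitor in seedling roots of Arabidopsis thaliana. The comparison rests on 3 arrays of roots treated with cellobiose and 3 arrays of control roots, 6 of the 12 arrays in the series, chosen by their treatment labels. It covers all 22746 probe sets that are not manufacturer's controls. Every group held roots of 7-day-old wild-type seedlings of the ecotype Col-0, frozen after 25 min, and differed in the elicitor. The control received no treatment according to the labels and no elicitor according to the design text. The other 6 arrays, 3 with chitin (chito-oligomers) and 3 with oligogalacturonides (OGs), share the control arrays and enter the fit. Many seedlings grew together on a mesh disc, and an array therefore reads a pool of whole roots. Each group had 3 biological replicates, and the labels state no dose.

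Plant cells carry surface receptors for fragments of walls, of the plant itself or of a microbe. Binding of a fragment is followed within minutes by calcium influx, reactive oxygen and phosphorylation cascades, and then by a burst of transcription of regulators, ubiquitin ligases and wall enzymes. Cello-oligomers such as cellobiose are released when cellulose is cut and are counted among the damage-associated signals of the wall.

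Levels are log2 intensities on Affymetrix ATH1 arrays, on which a probe set of short oligonucleotides reads a gene, and a change is the mean log2 ratio of the 3 replicate pairs. Calls required an adjusted p below 0.05 (limma, Benjamini-Hochberg adjustment over all probe sets). Within 25 min of cellobiose 1077 probe sets rose and 889 fell, which is 4.73% and 3.91% of those tested and 8.64% together. Rises were larger than falls. Among the called probe sets 660 rose and 131 fell at least 2-fold (2.9% and 0.576% of those tested), 306 and 14 at least 4-fold, and 131 and 1 at least 8-fold. No probe set fell 16-fold or more, whereas 57 rose that far. The median change was 1.27 among rises and -0.56 among falls, and -0.03 over all probe sets.

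**Figure D1:**
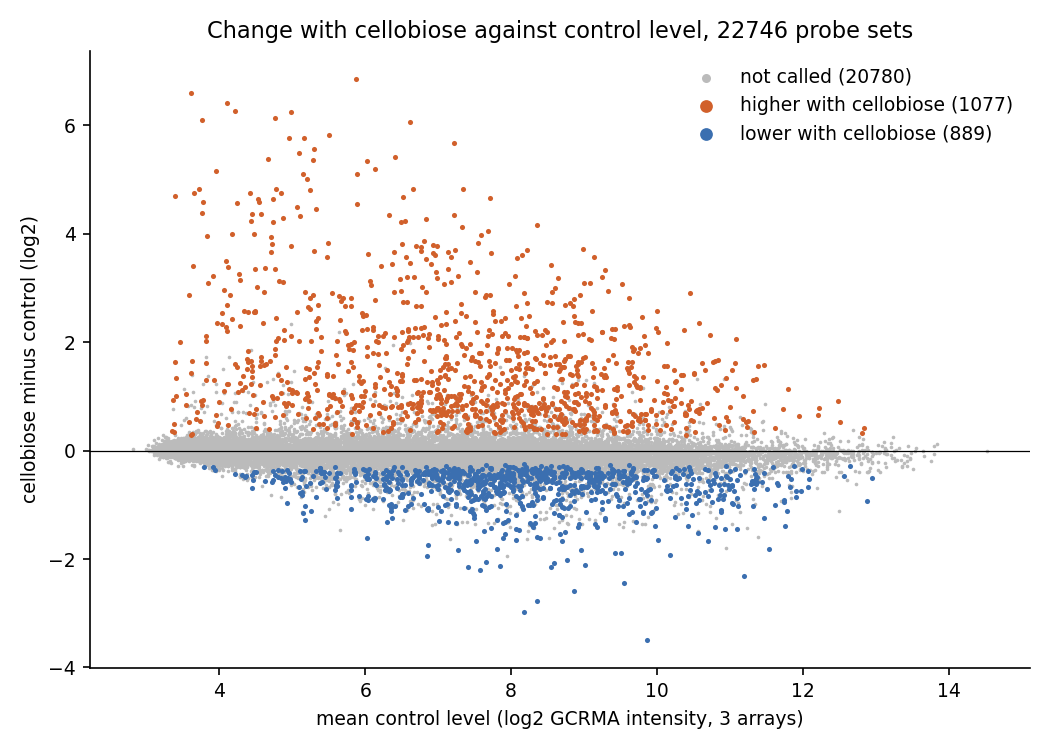
Change with cellobiose (log2, vertical axis) against the mean level of the 3 control arrays (log2 GCRMA intensity, horizontal axis), 1 point per probe set, coloured by the call. Changes of more than 4 log2 are all upward and start from control levels below 9, and falls lie mostly between -0.3 and -2.

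Rises and falls came from every range of level. Of the 7938 probe sets with a control level under 5 log2, 155 rose and 32 fell (1.95% and 0.403%), and of the 813 at or above 11 log2, 25 rose and 53 fell (3.08% and 6.52%). The median level moved from 7.43 to 9.08 among rises and from 8.10 to 7.39 among falls. The replicate pairs gave like medians, 1.16, 1.32 and 1.26 for rises and -0.57, -0.58 and -0.56 for falls in pairs 1, 2 and 3. Control and cellobiose arrays did not overlap in 992 of the rises and 818 of the falls, whereas 9.78% and 15.4% of all probe sets were higher or lower without overlap. No detection call was used, so levels near 3 to 4 were not shown to be above background.

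One control array lay closer to the treated ones. Control replicate 1 was the highest of the 3 controls in 71.7% of the rises, against 32.7% of all probe sets, and the lowest in 67.7% of the falls, against 42.3%. The 1966 calls became 1571 when that array was omitted, 773 when control replicate 3 was omitted and 853 when cellobiose replicate 1 was omitted. The split into rises and falls also depended on the scaling: after the arrays were set to equal poly-A spike-in levels, with unmoderated variance, 988 were higher and 10 lower, against 632 and 374 with unmoderated variance on the deposited values. The mean spike-in level was 6.852, 6.429 and 6.429 in control replicates 1, 2 and 3 and 6.141, 6.474 and 6.084 in those of cellobiose. Cellobiose replicate 2 thus lay above control replicates 2 and 3, and the groups overlapped. Under that scaling the median change over all probe sets was 0.30 log2. The falls below are therefore falls relative to the bulk of the genes.

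The largest rises included few genes with a symbol. Of the 15 largest among probe sets that read a single gene, only WRKY53 and DLAH have one, and the others are given by locus. AT3G02840 stood at 4.60, 4.04 and 3.98 on the control arrays 1, 2 and 3 and at 11.24, 9.73 and 10.44 on the cellobiose arrays. It rose by 6.26 ± 0.42 log2 (SE; adjusted p = 9.5e-05), the largest change of any named gene, and its lowest cellobiose array was far above its highest control array. WRKY53, a transcription factor of defence and leaf senescence, stood at 7.35, 6.00 and 6.51 in controls and at 12.80, 12.54 and 12.70 with cellobiose. The treated arrays lay close together, and the rise was 6.06 ± 0.27 (SE; adjusted p = 2.2e-05).

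AT5G52750 went from 5.81, 4.51 and 4.55 to 10.72, 10.97 and 10.47, a rise of 5.76 ± 0.45 log2 (SE; adjusted p = 1.6e-04). AT5G28610 went from 6.35, 4.90 and 4.66 to 11.32, 10.70 and 10.61. Both loci had their highest control value in replicate 1. This was most marked for AT3G01830, which read 8.59 in control replicate 1 against 3.88 and 4.07 in the other controls, and 12.16, 10.96 and 10.89 with cellobiose. Its rise of 5.82 ± 0.66 log2 (SE; adjusted p = 8.3e-04) thus averages pairs of 3.57, 7.08 and 6.82. DLAH, a lipase gene, stood at 6.95, 6.18 and 6.10 in controls and at 11.88, 11.46 and 12.10 with cellobiose.

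Other loci started from a tight low level. AT1G26420 read 3.73, 3.69 and 3.72 in controls and 8.58, 8.53 and 8.51 with cellobiose, and AT1G26380 read 3.88, 3.88 and 4.08 against 8.98, 9.37 and 8.97. The remaining 7 of the largest rises, AT5G14700, AT2G23270, AT5G48430, AT2G24600, AT5G39670, AT1G51920 and AT1G58420, changed by 4.81 to 5.49 log2. All 15 were without overlap between the groups, where 9.78% of all probe sets were higher without overlap, and passed with any single one of the 6 arrays omitted. They were chosen by the size of their change on these same arrays, so this is not separate evidence. In 12 of the 15 control replicate 1 was the highest control. AT1G26380 did not pass with unmoderated variance (adjusted p = 0.0536).

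**Figure D2:**
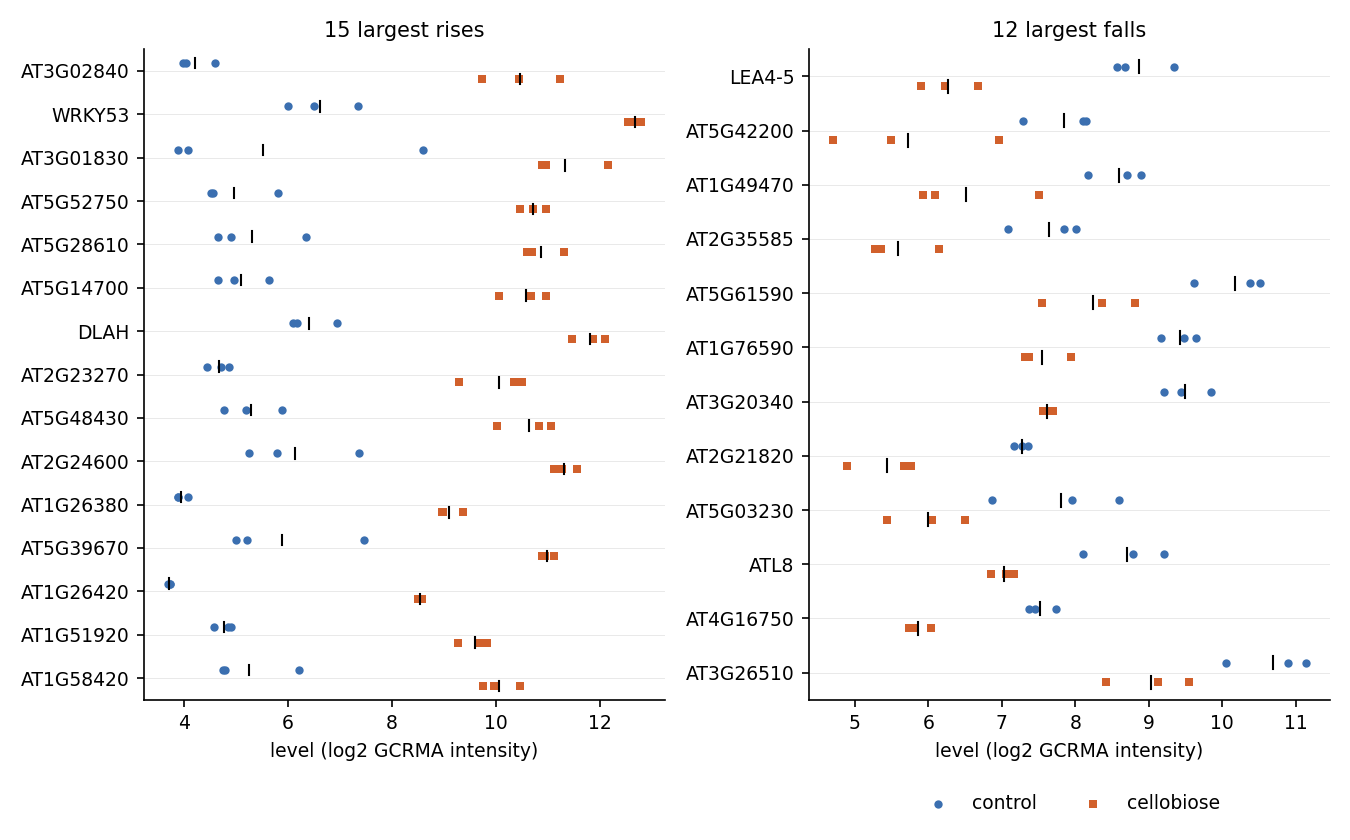
Level (log2 GCRMA intensity) on each array for the 15 largest rises and the 12 largest falls among called probe sets that read a single gene; circles are the 3 control arrays, squares the 3 cellobiose arrays, and the bar is the group mean. The groups are apart for all 27 genes, which were chosen by the size of their change on these arrays. A lone high control stands out for AT3G01830 (8.59).

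WRKY53 had the smallest adjusted p among the named genes, and the 4 loci given here were among the next. AT4G20000 rose from 6.50, 6.40 and 6.06 to 10.69, 10.48 and 10.81, by 4.34 ± 0.20 log2 (SE; adjusted p = 2.3e-05). AT5G48540 rose from 7.92, 7.96 and 8.05 to 10.98, 11.32 and 10.83, by 3.07 ± 0.15 (SE; adjusted p = 3.6e-05). AT1G55450 rose by 3.72 ± 0.22 and AT1G51920 by 4.82 ± 0.29 (SE; adjusted p = 5.7e-05 for both). In all 4 loci, chosen by their p on these same arrays, every cellobiose array was well above every control array.

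Of receptors for wall fragments and elicitors, none of the 4 measured out of 14 listed passed. AT1G56145, listed as CORK1, the receptor kinase for cello-oligomers, stood at 8.24, 8.23 and 8.07 in controls and at 8.20, 7.99 and 8.20 with cellobiose. The groups overlapped and the difference was -0.05, with a 95% interval of -0.35 to 0.25 log2 (adjusted p = 0.894). FER, the FERONIA kinase that senses the wall, differed by 0.30 (interval 0.06 to 0.55, adjusted p = 0.137) and THE1, a relative with a role in sensing cellulose damage, by 0.20 (interval -0.06 to 0.46). EFR, the receptor of a bacterial elongation factor peptide, was near 4 log2 in both groups and differed by 0.09.

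Single kinases of immune signalling, receptors among them, rose. BIK1, the cytoplasmic kinase that many immune receptors phosphorylate, stood at 8.68, 8.90 and 8.92 in controls and at 10.04, 10.37 and 10.29 with cellobiose. It rose by 1.40 ± 0.14 log2 (SE; adjusted p = 4.8e-04), and the groups did not overlap. B120, an S-domain receptor kinase, rose from 6.58, 6.29 and 6.32 to 9.55, 9.26 and 9.14, by 2.92 ± 0.27 (SE; adjusted p = 3.4e-04). SD1-29, the S-domain kinase that senses bacterial hydroxy fatty acids, rose by 1.42 ± 0.19, and PTI1-4, a cytoplasmic kinase of the oxidative burst pathway, by 1.51 ± 0.18. B120, SD1-29 and PTI1-4 belong to no list and were grouped by role after their values had been seen.

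All 4 measured of the 16 genes listed for early immune signalling rose, where 4.73% of all probe sets did. They were BIK1 and the U-box ubiquitin ligases PUB22, PUB23 and PUB24, which dampen immune signalling. PUB24 went from a mean of 6.97 ± 0.16 in controls to 10.26 ± 0.24 with cellobiose (SD, n = 3), a rise of 3.29 ± 0.18 log2 (SE; adjusted p = 5.0e-05). PUB23 went from 10.62, 8.93 and 9.02 to 12.88, 12.42 and 12.50, and PUB22 from 9.47, 8.30 and 8.35 to 11.63, 10.94 and 10.67. Control replicate 1 was the highest control for all 3 ligases. The wider U-box family had 4 rises and 1 fall among 9 measured genes, where 4.73% of all probe sets rose and 3.91% fell. The other rise, PUB25, was 0.61 ± 0.12 and ended without control replicate 2 or 3 or cellobiose replicate 1 or 3 (adjusted p = 0.0548 to 0.0957). Among 5 measured genes of the RING family as counted here, 1 rose and 2 fell, with changes of -1.67 to 1.05. The rise was RHF1A, by 1.05 ± 0.09. RING1, a RING ligase linked to cell death, is outside that count and was noted after its value was seen. It rose by 2.55 ± 0.31 (SE), from 5.08, 3.94 and 4.15 to 7.30, 6.87 and 6.65.

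Calcium sensors were split. Of the 20 calcium genes listed, 8 were measured and 4 rose, where 4.73% of all probe sets did. All 4 are calmodulin-like proteins, which bind calcium and pass its signal on. AT5G39670, listed as CML46, stood at 7.46, 5.22 and 5.0 in controls and at 11.13, 10.89 and 10.95 with cellobiose (5.10 ± 0.56 log2, SE; adjusted p = 7.4e-04). CML37 stood at 6.54, 3.83 and 3.80 and then at 10.19, 7.40 and 9.21 (4.21 ± 0.65). CML42 had the most even arrays, 9.06, 8.87 and 8.89 against 11.85, 11.93 and 11.67, and rose by 2.88 ± 0.23. CML43 rose by 0.60 ± 0.11 (adjusted p = 0.01).

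The other 4 did not pass, and in a pair of them replicate 1 set the level in both groups. AT1G76640, listed as CML39, read 10.54, 6.93 and 6.24 in controls and 10.73, 6.28 and 6.91 with cellobiose, a difference of 0.07 (interval -0.53 to 0.67). CML38 read 10.53, 9.26 and 7.97 against 11.17, 8.66 and 10.06 (0.71, interval -0.57 to 1.98). CML41 and AT3G47480 stayed near 4 log2 and differed by 0.14 and -0.05.

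Transcription factors of the WRKY family bind defence promoters. The 3 measured of 23 listed WRKY genes rose, where 4.73% of all probe sets did. The other 4 measured family members, WRKY20, WRKY42, WRKY47 and ZAP1, did not pass, with changes of -0.19 to 0.22 log2. WRKY22, which acts below a MAP kinase cascade, stood at 7.37, 5.85 and 6.28 in controls and at 10.54, 10.53 and 9.87 with cellobiose (3.81 ± 0.36, SE; adjusted p = 4.1e-04). WRKY6 went from 8.71, 9.0 and 8.98 to 10.32, 10.43 and 10.18 (1.41 ± 0.11). BZIP60, the factor of the unfolded protein response, rose by 1.53 ± 0.15 from 9.76, 9.49 and 9.48. It is on no list and was noted after its value was seen. The bZIP family as counted here did not hold it. Of the 14 measured genes of that family 0 rose and 2 fell, where 4.73% and 3.91% of all probe sets did.

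STZ, a zinc finger repressor of abiotic stress, had a control array as high as a treated one. It read 10.91, 7.50 and 7.51 in controls and 12.54, 10.89 and 12.03 with cellobiose, so that control replicate 1 exceeded cellobiose replicate 2 while all 3 pairs rose. The rise was 3.18 ± 0.66 log2 (SE; adjusted p = 0.0173). Its call ended without control replicate 2 or 3 or cellobiose replicate 1 or 3 (adjusted p = 0.0615 to 0.0969). AT2G28200, listed as ZAT5 and of the same zinc finger class, fell by 1.40 ± 0.28, from 7.76, 8.41 and 8.72 to 6.00, 7.25 and 7.45. This call ended without control replicate 3 (adjusted p = 0.0991) or cellobiose replicate 1 (adjusted p = 0.0812), and with no replicate block (adjusted p = 0.0516).

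**Figure D3:**
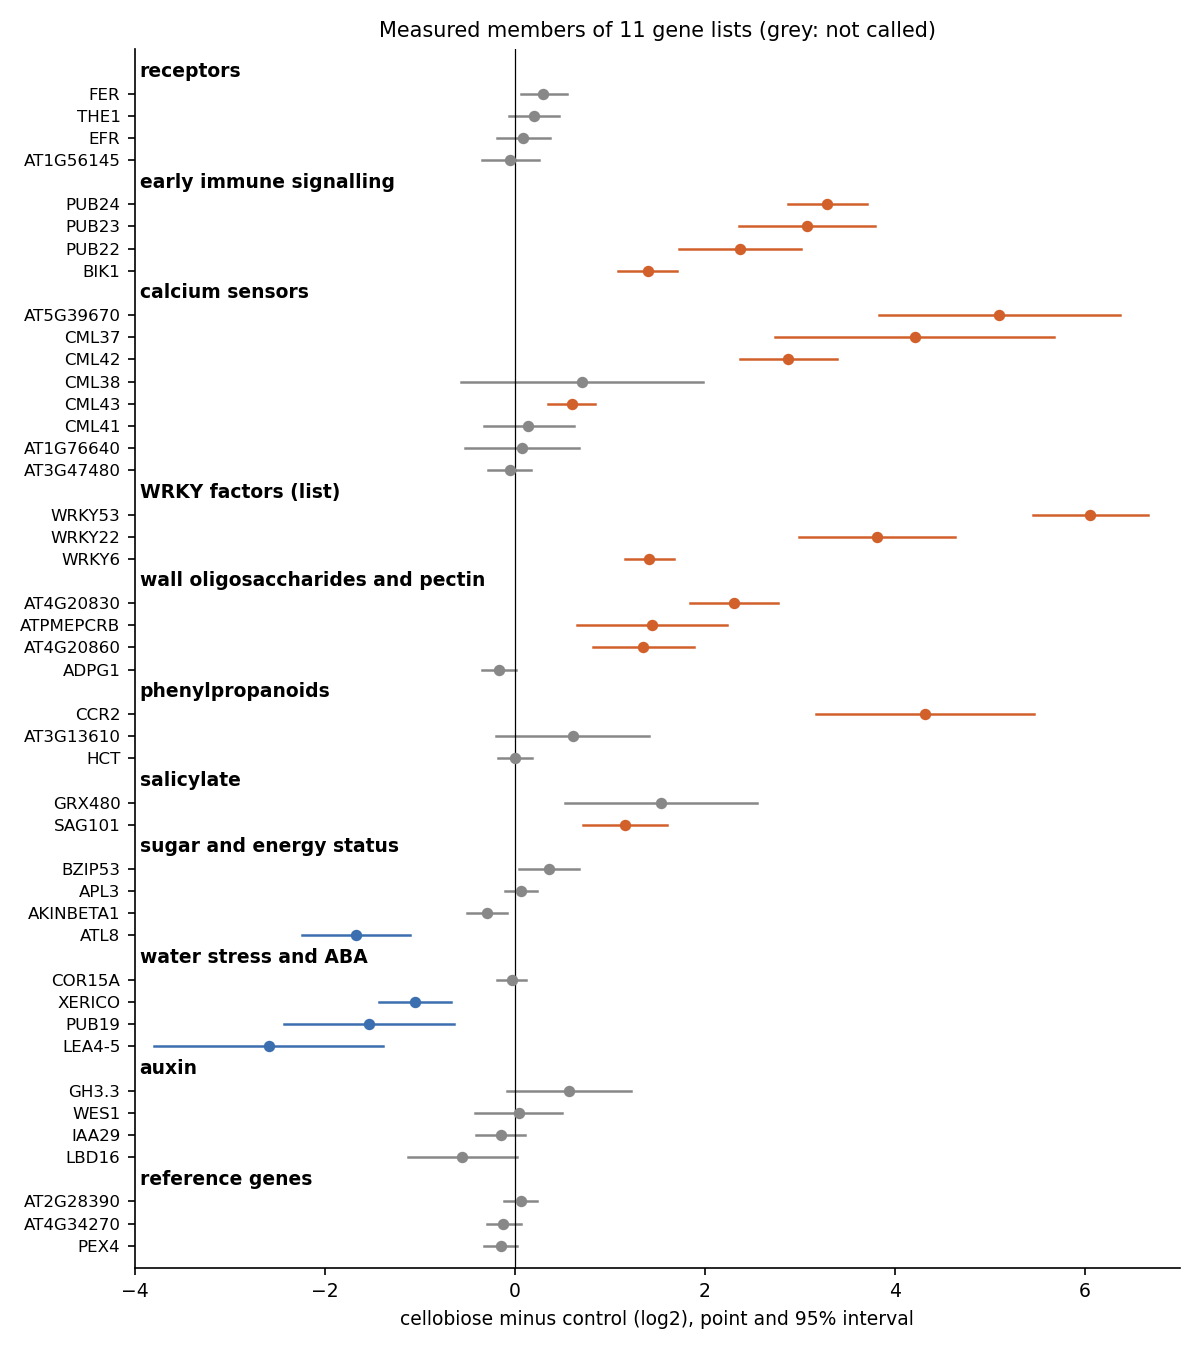
Change with cellobiose (log2) and its 95% interval for every measured member of 11 gene lists; orange points were called higher, blue lower, grey neither. All measured members on the WRKY list (3 of 23 listed) and the early immune list (4 of 16) are orange, whereas the receptor, auxin and reference lists are grey. WRKY20, WRKY42, WRKY47 and ZAP1, measured but not listed, did not pass and are not shown. The lists were chosen with earlier results of these data known.

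Of 11 genes listed for wall oligosaccharides and pectin, 4 were measured and 3 rose, where 4.73% of all probe sets did. AT4G20860, listed as the cellodextrin oxidase CELLOX, which oxidises cello-oligomers, stood at 10.36, 9.68 and 9.40 in controls and at a mean of 11.17 ± 0.15 (SD, n = 3) with cellobiose. The groups did not overlap, and it rose by 1.35 ± 0.24 log2 (SE; adjusted p = 0.00842). AT4G20830, listed as the oligogalacturonide oxidase OGOX1, went from 9.86, 9.50 and 9.46 to 11.94, 12.04 and 11.75 (2.31 ± 0.21, adjusted p = 3.0e-04). ATPMEPCRB, a pectin methylesterase, went from 7.04, 6.21 and 6.03 to 7.92, 8.13 and 7.54 (1.44 ± 0.35), but its call ended without control replicate 2 or 3 or cellobiose replicate 1 or 2 (adjusted p = 0.109 to 0.19). ADPG1, a polygalacturonase, differed by -0.17 (interval -0.35 to 0.01). AT4G20860 did not pass with unmoderated variance (adjusted p = 0.0598), and AT4G20830 did (adjusted p = 0.0125).

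Glycosidases of the BGLU family, some of which split beta-glucosides, hardly moved apart from a single gene. Of 22 measured members BGLU27 alone passed, beside the 4.73% of all probe sets that rose. It read 3.95, 4.00 and 3.78 in controls and 7.44, 7.47 and 6.51 with cellobiose, a rise of 3.23 ± 0.19 log2 (SE; adjusted p = 5.7e-05). The median over the family was 0.01. BGLU46 differed by 0.56 (interval 0.16 to 0.95, adjusted p = 0.0897), BGLU15 by 0.41 (interval -0.12 to 0.94) and PYK10, the abundant root beta-glucosidase, by 0.08 (interval -0.31 to 0.47). BGLU32 read 6.10 in cellobiose replicate 1 and between 3.55 and 3.77 elsewhere in these 2 groups. The remaining 17 lay between -0.22 and 0.24.

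Families that loosen or build the wall had few calls. Single members passed among the expansins (1 of 19) and the GH9 endoglucanases (1 of 15), a share near the 4.73% of all probe sets that rose. XTH enzymes cut and rejoin xyloglucan, and 2 of 10 measured rose and 1 fell, where 4.73% of all probe sets rose and 3.91% fell. The fall, EXGT-A3 (-0.53), lost its call without every array but cellobiose replicate 3 (adjusted p = 0.0736 to 0.124). XTH18 went from 10.49, 9.02 and 8.59 to 11.82, 11.30 and 11.24 (2.08 ± 0.35, SE), and XTH20 was higher by 0.87 ± 0.22 with a call that ended without every array but control replicate 1 (adjusted p = 0.0593 to 0.225). XTH19 missed the threshold at 0.63 ± 0.17 (adjusted p = 0.0501). EXLA3, an expansin-like protein, was the expansin gene that passed, and went from 8.60, 5.42 and 5.17 to 10.46, 9.74 and 10.01. CSLC04, the synthase of the xyloglucan backbone, went from 9.89, 8.71 and 8.68 to 11.46, 11.03 and 10.96 (2.05 ± 0.32). GH9C3, an endoglucanase of the family that trims cellulose, went from 4.87, 4.59 and 4.45 to 6.15, 6.61 and 5.94 (1.59 ± 0.18). COB, which orients cellulose deposition and is the only measured gene of 13 listed for cellulose synthesis, stood at 10.95, 11.16 and 11.09 against 10.95, 11.27 and 11.10. It differed by 0.04 (interval -0.23 to 0.30).

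Lignin and phenolic genes had separate fates. CCR2, a cinnamoyl-CoA reductase, went from 5.53, 4.89 and 4.89 to 9.67, 9.67 and 8.95 (4.32 ± 0.51 log2, SE; adjusted p = 0.00106). It was the only one to pass of 3 measured genes of 19 listed for phenylpropanoids, where 4.73% of all probe sets rose. HCT, an acyltransferase upstream in lignin synthesis, stood at 10.16, 10.29 and 10.28 against 10.14, 10.32 and 10.26, and differed by 0.00 (interval -0.18 to 0.18). AT3G13610, of coumarin synthesis, was higher on every cellobiose array but did not pass (0.61, interval -0.20 to 1.41). CCOAMT, a caffeoyl-CoA methyltransferase noted after its value was seen, was higher by 2.56 ± 0.50, and its call ended without control replicate 3 (adjusted p = 0.0835) or cellobiose replicate 1 (adjusted p = 0.0816). AT5G66390, the class III peroxidase PRX72, a wall enzyme of lignin formation, went from 9.78, 9.66 and 9.56 to 10.32, 10.57 and 10.15 (0.68 ± 0.11). The other 5 measured class III peroxidases did not pass, with changes of -0.02 to 1.32, where 4.73% of all probe sets rose.

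Hormone genes were few among those named. OPCL1, an enzyme of jasmonate synthesis, is on no list and was noted after its value was seen. It read 10.47, 7.87 and 7.87 in controls and 11.55, 10.56 and 10.16 with cellobiose (2.02 ± 0.36 log2, SE). Its call ended without control replicate 3 (adjusted p = 0.0556) and with no replicate block (adjusted p = 0.102). ORA47, a jasmonate regulator, was the only measured gene of 18 listed for jasmonate and did not pass (0.42, interval -0.92 to 1.76). It was near 4 log2 except in replicate 1, where it read 6.85 in the control and 7.99 with cellobiose. SAG101, a partner of EDS1 in salicylate-linked immunity, rose from 6.69, 6.23 and 6.35 to 7.66, 7.62 and 7.46 (1.16 ± 0.19). GRX480, a salicylate-induced glutaredoxin, read 10.22, 6.61 and 6.73 and then 11.07, 8.39 and 8.72, and did not pass (1.54, interval 0.53 to 2.55, adjusted p = 0.0705). None of the 4 measured auxin genes of 12 listed passed. GH3.3 differed by 0.57 (interval -0.08 to 1.22) and LBD16, a lateral root regulator, by -0.56 (interval -1.13 to 0.02).

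Several metabolic genes rose by more than 2 log2, grouped here after their values had been seen. HEMA2, which commits glutamyl-tRNA to tetrapyrrole synthesis, went from 8.83, 7.83 and 7.71 to 11.06, 10.37 and 10.31 (2.45 ± 0.30 log2, SE; adjusted p = 0.00133). The next enzyme of that pathway, GSA1, differed by 0.55 ± 0.14 (adjusted p = 0.047), a call lost without any array except cellobiose replicate 3 (adjusted p = 0.138 to 0.183). APS3, an ATP sulfurylase that activates sulphate, went from 7.68, 6.20 and 6.20 to 10.26, 9.22 and 8.61 (2.67 ± 0.32). SUFE2, an activator of the desulfurase that feeds iron-sulphur clusters, went from 7.79, 7.73 and 7.73 to a mean of 10.28 ± 0.24 (SD, n = 3; 2.52 ± 0.32). The sets of arrays were apart for HEMA2, APS3 and SUFE2. CCT2, of phosphatidylcholine synthesis, rose by 0.88 ± 0.14.

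Some genes of membrane traffic and membrane domains passed, in both directions, and were grouped here after their values had been seen. SEC1B, a vesicle fusion protein, went from 5.98, 6.25 and 6.08 to 7.08, 6.87 and 6.89 (0.84 ± 0.12 log2, SE; adjusted p = 0.00326). SEC15B was the only one of 5 measured exocyst genes to pass, where 4.73% of all probe sets rose. It was higher by 0.49 ± 0.09, a call that ended without control replicate 3 (adjusted p = 0.0586) or cellobiose replicate 1 (adjusted p = 0.0567). Tetraspanins, small proteins of membrane domains, gave 2 rises and 2 falls among 15, where 4.73% of all probe sets rose and 3.91% fell. TET9 went from 4.43, 3.91 and 3.94 to 8.07, 7.23 and 7.43 (3.49 ± 0.32), and TET5 from 8.14, 8.19 and 8.37 to 6.96, 7.28 and 7.45 (-1.0 ± 0.13). No TET9 or TET5 value of one group lay within the range of the other. TET8, known from extracellular vesicles, was higher by 0.77 ± 0.18 and TET6 lower by 0.38 ± 0.10, but each call ended without at least 4 of the 6 arrays. For TET8 these were control replicates 2 and 3 and cellobiose replicates 1 and 3 (adjusted p = 0.104 to 0.181), and for TET6 all but cellobiose replicate 1 (adjusted p = 0.0806 to 0.233).

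The largest falls started from moderate levels. LEA4-5, a late embryogenesis abundant protein of water stress, went from 9.34, 8.68 and 8.57 in controls to 6.23, 5.90 and 6.67 with cellobiose (-2.59 ± 0.53 log2, SE; adjusted p = 0.0168). AT5G61590, the AP2/ERF factor DEWAX that represses wax synthesis, went from 9.61, 10.38 and 10.51 to 7.54, 8.36 and 8.81 (-1.93 ± 0.26, adjusted p = 0.0021). AT3G20340 had tight treated arrays, 7.59, 7.69 and 7.56, against 9.21, 9.44 and 9.84 (-1.88 ± 0.16, adjusted p = 2.4e-04). ATL8, a RING ligase listed as a marker of sugar starvation, went from 9.20, 8.10 and 8.79 to 7.06, 7.17 and 6.85 (-1.67 ± 0.25, adjusted p = 0.00368). In all 12 of the largest falls, chosen by size on these same arrays, the groups were apart, where 15.4% of all probe sets were lower without overlap. Control replicate 1 was the lowest control in 8 of the 12.

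Of these 12, 8 passed with any single array omitted, among them AT2G35585 (-2.05 ± 0.29 log2, SE), AT1G76590 (-1.89 ± 0.23), AT5G03230 (-1.81 ± 0.29), AT4G16750 and AT3G26510 (both -1.66). LEA4-5 lost it without control replicate 3 (adjusted p = 0.0988) or cellobiose replicate 1 (adjusted p = 0.0968) or 2 (adjusted p = 0.061). AT1G49470 (-2.08) lost it without control replicate 3 (adjusted p = 0.0689) or cellobiose replicate 1 (adjusted p = 0.0732). AT5G42200 (-2.13) lost it without control replicate 2 or 3 or cellobiose replicate 1 (adjusted p = 0.0562 to 0.0705), and AT2G21820 (-1.83) without control replicate 2 or 3 or cellobiose replicate 1 or 2 (adjusted p = 0.0552 to 0.0955). Of the 61 falls among named genes, only AT5G61590 (adjusted p = 0.049), AT3G20340 (adjusted p = 0.0188) and ATL8 (adjusted p = 0.036) passed after spike-in scaling, and 24 of the 61 passed with unmoderated variance on the deposited values.

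Of 17 genes listed for water stress and abscisic acid, 4 were measured and 3 fell, where 3.91% of all probe sets did. These were LEA4-5, PUB19 and XERICO, and only the call of XERICO stood with any single array omitted. XERICO, a RING protein that raises abscisic acid levels, went from 9.63, 10.15 and 10.20 to 8.58, 8.95 and 9.31 (-1.05 ± 0.17 log2, SE; adjusted p = 0.00508). PUB19, a ligase that restrains abscisic acid signalling, read 9.22, 8.58 and 8.22 against 7.91, 6.01 and 7.49 (-1.54 ± 0.40). It changed by -0.93 without cellobiose replicate 2, and its call ended without any control replicate or cellobiose replicate 1 (adjusted p = 0.114 to 0.149). COR15A stood near 3.8 in both groups and differed by -0.03 (interval -0.19 to 0.12).

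Of 21 genes listed for sugar and energy status, 4 were measured. ATL8 alone passed, where 3.91% of all probe sets fell. AKINBETA1, a subunit of the energy-sensing SnRK1 kinase, stood at 10.05, 10.40 and 10.36 against 9.85, 10.05 and 10.04 (-0.29, interval -0.50 to -0.08, adjusted p = 0.0962). BZIP53, which acts in low-energy transcription, differed by 0.36 (interval 0.04 to 0.67, adjusted p = 0.177), and APL3, of starch synthesis, by 0.06 (interval -0.10 to 0.23). Among 16 sugar transporter genes only SWEET7 passed, beside the 3.91% of all probe sets that fell. It read 3.91, 3.91 and 3.90 in controls against 3.57, 3.59 and 3.64 with cellobiose. Its change of -0.31 ± 0.08 ended with any array left out (adjusted p = 0.0863 to 0.147), and was 0.03 after spike-in scaling.

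Autophagy genes lay lower as a family. ATG8 proteins coat the autophagosome membrane, and among 11 measured autophagy genes 6 fell and none rose, against 3.91% of all probe sets that fell. All 6 are among the 9 measured ATG8 genes. ATG8G went from 8.20, 7.91 and 8.25 to 7.30, 7.27 and 7.64 (-0.72 ± 0.10 log2, SE; adjusted p = 0.00287), and no array of one group reached the other. ATG8D went from 8.58, 8.90 and 8.75 to 8.28, 8.30 and 8.32 (-0.44 ± 0.08). The others called were APG8H (-0.61), ATG8F (-0.57), ATG8E (-0.51) and ATG8C (-0.47), and the median over the 9 was -0.51. ATG8B differed by -0.63 (interval -1.36 to 0.09), APG8A by -0.40 (interval -0.72 to -0.07), ATG8H by -0.10 (interval -0.44 to 0.24) and ATG3, which attaches lipid to ATG8, by -0.24 (interval -0.53 to 0.05).

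ATG8G passed with any single array omitted, and ATG8D lost it only without control replicate 3 (adjusted p = 0.0523). APG8H, ATG8F, ATG8E and ATG8C lost theirs without at least 4 of the 6 arrays, control replicate 3 and cellobiose replicates 1 and 2 among them each time (adjusted p = 0.0505 to 0.233). After spike-in scaling the median of the ATG8 genes was -0.17, against 0.30 for all probe sets, and 0 of 9 passed.

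**Figure D4:**
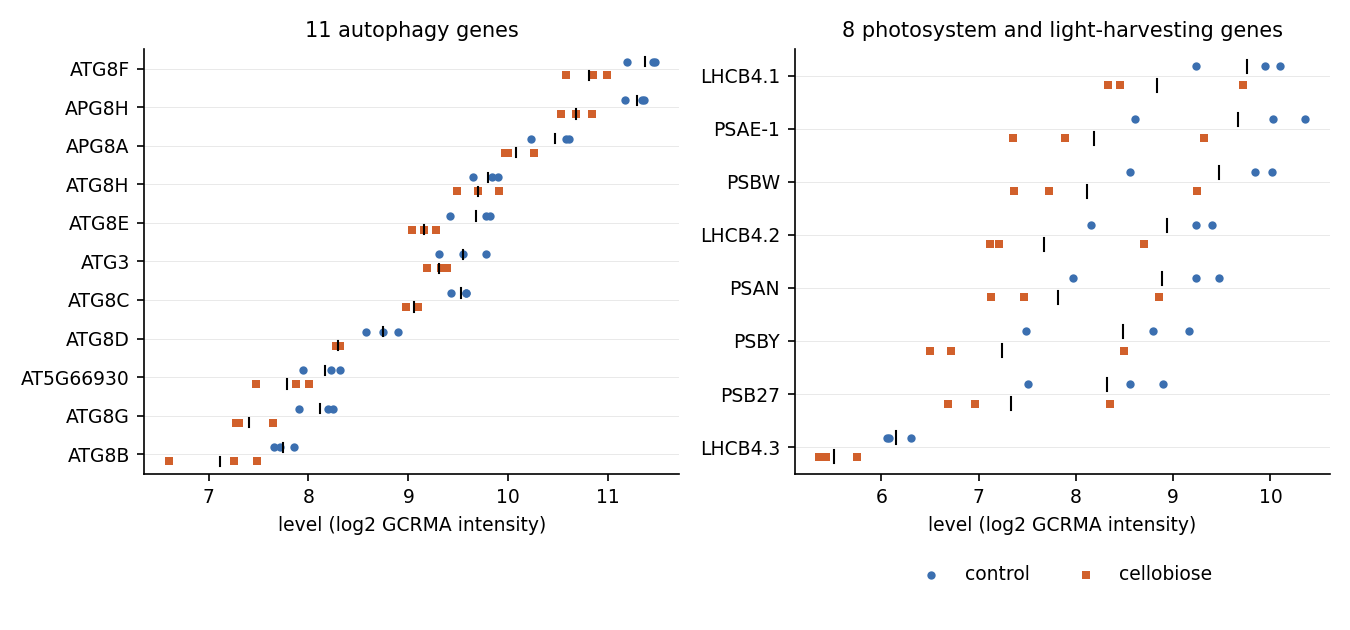
Level (log2 GCRMA intensity) on each control array (circles) and each cellobiose array (squares), with group means as bars, for the 11 autophagy genes and the 8 photosystem and light-harvesting genes. The groups are apart for 7 of the 9 ATG8 genes, all but APG8A and ATG8H, where 15.4% of all probe sets were lower without overlap. For the photosystem genes a control array is low and a cellobiose array high, with an overlap in all but LHCB4.3.

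Genes of green plastids were lower on average but uneven, and they are markers of shoot tissue in a root sample. The mean level of 8 photosystem and light-harvesting genes was 9.21, 7.95 and 8.96 in controls and 7.21, 8.55 and 7.00 with cellobiose. Replicate 2 thus ran the other way from replicates 1 and 3. LHCB4.3 was the only one of the 8 to pass, where 3.91% of all probe sets fell. It read 6.30, 6.08 and 6.06 against 5.36, 5.75 and 5.43 (-0.64 ± 0.11 log2, SE; adjusted p = 0.00694), and the family median was -1.16. RCA, the activase of carbon fixation and the single measured shoot marker of 12 listed, read 11.53, 10.48 and 11.33 against 9.86, 10.93 and 9.63 and did not pass (-0.97, interval -1.75 to -0.20). In a bulk sample fewer cells of a type and less RNA per cell cannot be told apart.

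A few other genes of plastid proteins fell, picked after their values had been seen, while HEMA2 and SUFE2, also of plastids, rose as described above. NdhS, a subunit of the plastid NDH complex, went from 8.81, 8.49 and 8.79 to 7.67, 8.01 and 7.70 (-0.90 ± 0.13 log2, SE; adjusted p = 0.00326). ATPC2, a gamma subunit of plastid ATP synthase, went from 7.04, 7.13 and 7.26 to 6.67, 6.55 and 6.71 (-0.50 ± 0.10), and NTRC, a plastid thioredoxin reductase, from 7.46, 7.37 and 7.57 to 7.05, 7.12 and 7.13 (-0.36 ± 0.07). NdhS kept its call without any array. ATPC2 lost it without control replicate 2 (adjusted p = 0.0528) or 3 (adjusted p = 0.0825), and NTRC without control replicate 1 or 3 or cellobiose replicate 1 or 3 (adjusted p = 0.0546 to 0.0905). NdhS was lowest in control replicate 2 and highest in cellobiose replicate 2 within its groups, as was the mean of the photosystem genes. NTRC was also lowest in control replicate 2, while its cellobiose replicates 2 and 3 were nearly equal. ATPC2 followed neither part of this order. The part of shoot transcripts in these falls was not tested.

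Root markers gave no call. PYK10, a marker of whole roots, stood at 13.36, 13.51 and 13.45 against 13.28, 13.85 and 13.44. EXPA7 and EXPA18, expansins of root hairs, stood between 9.17 and 10.10 in controls and differed by 0.17 (interval -0.44 to 0.77) and 0.03 (interval -0.59 to 0.66). AT1G62500, a cortex marker, differed by -0.20 (interval -0.41 to 0.02). The labelled root tissue thus showed its abundant marker on every array, beside the photosystem transcripts described above. The reference genes PEX4, AT4G34270 and AT2G28390 differed by -0.15, -0.12 and 0.06 and did not pass.

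Growth regulators and genes of other roles were among the falls, noted after their values had been seen unless a list held them. Genes so noted were taken from the falls, so their shared direction is not a result about growth. SIM, an inhibitor of cyclin-dependent kinases that promotes endoreduplication in trichomes, went from a mean of 10.42 ± 0.38 (SD, n = 3) to 8.75, 9.18 and 9.17 (-1.39 ± 0.21 log2, SE; adjusted p = 0.004). GID1C, a gibberellin receptor, went from 7.02, 7.74 and 7.49 to 6.35, 6.54 and 6.76 (-0.86 ± 0.12, adjusted p = 0.00288). SIM and GID1C had no overlap and kept their calls without any array. SLY1, the F-box protein that removes DELLA repressors, was lower by 0.45 ± 0.10 and UPB1, a repressor of peroxidases at the root transition zone, by 0.38 ± 0.09. Both calls ended without any array except cellobiose replicate 3 (adjusted p = 0.0522 to 0.108 for SLY1 and 0.0918 to 0.13 for UPB1). IVD, of leucine breakdown, fell by 0.55 ± 0.09, and SRX, the sulfiredoxin that repairs peroxiredoxins, by 0.62 ± 0.10. GSTU16 (-0.84 ± 0.15) and GSTL3 (-0.40 ± 0.11) were the only ones of 13 glutathione transferases to pass, beside the 3.91% of all probe sets that fell. GSTU16 lost its call without control replicate 3 (adjusted p = 0.0541) and GSTL3 without all but control replicate 2 (adjusted p = 0.0658 to 0.225).

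The lists for ethylene, touch, secretion, root cap and vascular tissue had no measured gene, and GI, the only measured clock gene, differed by -0.34 (adjusted p = 0.316). Of 51 UDP-glycosyltransferases 3 rose and 3 fell, close to the 4.73% and 3.91% over all probe sets, with a median of 0.01. UGT71C4 fell by 0.69 ± 0.11 log2 (SE), whereas its close relative UGT71C5 was higher by 0.76 ± 0.14, a call lost without control replicate 3 (adjusted p = 0.0791) or cellobiose replicate 1 (adjusted p = 0.0662). Of 24 cytochrome P450 genes only CYP71B37 passed (-0.71 ± 0.13), a share close to the 3.91% of all probe sets that fell. Its call ended without control replicate 2 or 3 or cellobiose replicate 1 (adjusted p = 0.0547 to 0.0636). None of 9 histone genes, 12 auxin-family genes, 7 bHLH genes or 6 response regulators of cytokinin passed. HIS1-3, a linker histone of water stress, came nearest at 10.38, 11.27 and 11.44 against 9.57, 9.29 and 10.18 (-1.35, interval -2.18 to -0.52, adjusted p = 0.0548).

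The cellobiose arrays were also set against those of the other elicitors, with 2 pairs of compounds compared, and p adjusted over all probe sets within each pair. Chitin is a polymer of N-acetylglucosamine and OGs are chains of galacturonic acid, whereas cellobiose is a pair of glucose units. Since no dose is stated, the comparison is matched in time only. Few probe sets passed. Against chitin 4 did (0.0176%), 1 higher and 3 lower with cellobiose (0.0044% and 0.0132%), and against OGs 10 did (0.044%), 8 higher and 2 lower (0.0352% and 0.00879%). At an unadjusted p under 0.05 there were 1291 and 1237. A probe set that did not pass is not shown to respond alike.

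BGLU27 stood apart from both. It read 4.38, 4.47 and 4.30 with chitin and 4.53, 4.18 and 4.40 with OGs, beside 7.44, 7.47 and 6.51 with cellobiose and 3.95, 4.00 and 3.78 in controls. Only the cellobiose arrays were above 5 log2. Cellobiose exceeded chitin by 2.75 ± 0.19 log2 (SE, interval 2.32 to 3.19, adjusted p = 0.00172) and OGs by 2.77 ± 0.19 (interval 2.33 to 3.20, adjusted p = 0.00329). Both differences passed whichever single cellobiose, chitin or OGs array was left out. They did not pass without replicate 1 of every group (adjusted p = 0.262 and 0.408), with unmoderated variance (adjusted p = 0.2 and 0.195), or when only the arrays of the compared groups were fitted (adjusted p = 0.0734 and 0.611).

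A pair of loci was higher with chitin. AT3G12910 read 7.68, 9.23 and 8.41 with chitin against 4.42, 4.83 and 4.99 with cellobiose, a difference of -3.69 ± 0.24 log2 (SE; adjusted p = 0.00172). It rose with cellobiose too, by 1.34 ± 0.24 over controls at 3.24, 3.45 and 3.54; that call ended without control replicate 3 (adjusted p = 0.0562) or cellobiose replicate 1 (adjusted p = 0.0545). AT2G36440 read 7.40, 8.69 and 7.25 with chitin and 4.40, 3.78 and 3.91 with cellobiose (-3.75 ± 0.35, adjusted p = 0.015), and it did not pass against control (0.34, interval -0.45 to 1.14). Its difference from chitin ended without cellobiose replicate 2 or 3 (adjusted p = 0.051 and 0.102).

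Against OGs, 3 further named genes were higher with cellobiose and 1 lower. AT1G78410 read 8.20, 8.34 and 8.57 with cellobiose, 4.96, 6.27 and 6.35 with OGs and 7.09, 7.64 and 7.37 with chitin, and exceeded OGs by 2.51 ± 0.31 log2 (SE; adjusted p = 0.0489). AT1G53110 exceeded OGs by 1.12 ± 0.12 (adjusted p = 0.0481). AT5G66390, the peroxidase PRX72, read 9.56, 9.60 and 9.07 with OGs and exceeded it by 0.94 ± 0.11 (adjusted p = 0.0489). AT3G20340 was lower than with OGs by 1.30 ± 0.16, at 8.57, 8.93 and 9.24 there. These 4 are close to the threshold, and AT3G20340 passed in 0 and the others each in 1 of the 6 fits without 1 cellobiose or OGs array, the one without OGs replicate 3 (adjusted p otherwise up to 0.36).

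**Figure D5:**
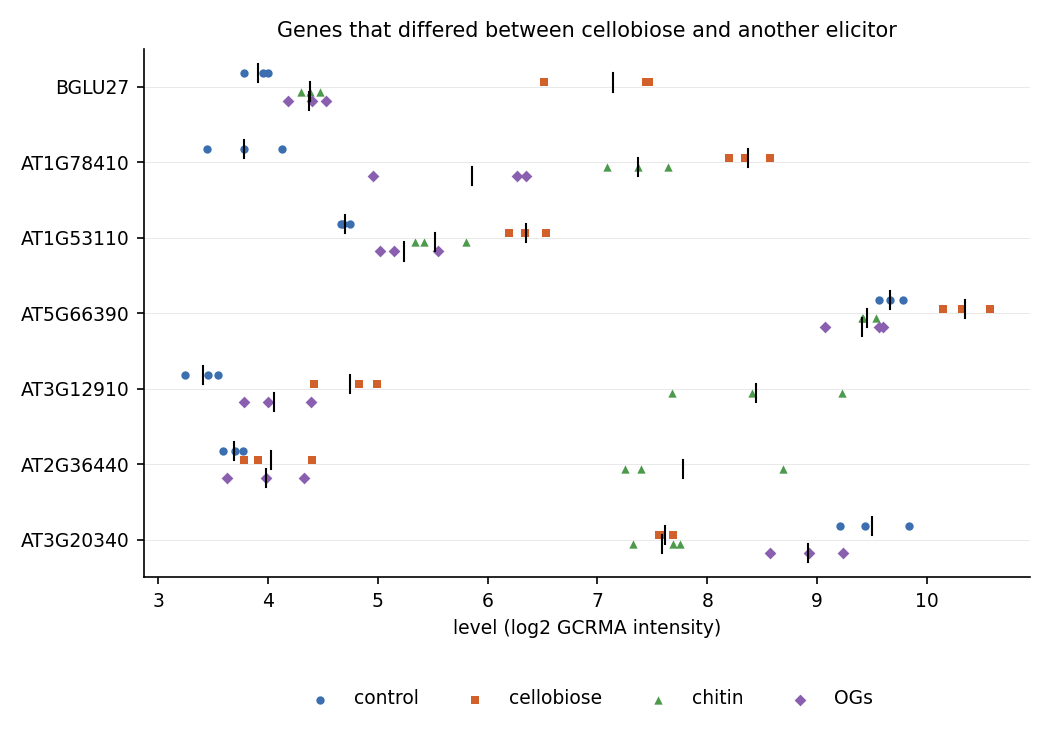
Level (log2 GCRMA intensity) on each array of the 4 treatments, with group means as bars, for the 7 named genes that differed between cellobiose and chitin or OGs. BGLU27 is above 6 only with cellobiose, and AT3G12910 and AT2G36440 are above 7 only with chitin.

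For a few genes described above, the values with the other elicitors are given for comparison, and none of these differences passed. AT4G20860, listed as CELLOX, averaged 11.17 ± 0.15 with cellobiose, 10.83 ± 0.07 with chitin and 11.38 ± 0.38 with OGs (SD, n = 3). Its differences were 0.34 from chitin (interval -0.20 to 0.88) and -0.21 from OGs (interval -0.75 to 0.33). AT1G56145, listed as CORK1, differed by 0.07 from chitin (interval -0.23 to 0.36) and by -0.03 from OGs (interval -0.33 to 0.26). DLAH was 2.01 above OGs (interval 1.0 to 3.02, adjusted p = 0.31) and 0.16 above chitin (interval -0.85 to 1.17).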

How the data were processed

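The deposited values are log2 intensities, which the authors made with GCRMA per the labels and design text; Affymetrix Expression Console was named without version or role, per the submitters' processing notes. The deposited table held 22810 rows, of which 64 manufacturer's controls were kept apart. Gene names came from GEO's platform annotation and, by Entrez gene identifier, the RefSeq annotation of TAIR10.1: 13513 (59.4%) read 1 gene, 503 several and 8730 are unnamed here. A gene is called measured where a named probe set reads it. WRKY30, used by the submitters to screen the RNA by qRT-PCR, and another time point were not analysed here. The number of arrays limits the precision.

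One linear model in limma 3.58.1 (R 4.3.3) held treatment and, since the design text takes ratios per sample pair, the replicate number as a block, on all 12 arrays, with eBayes at default settings (6 residual and 3.09 prior degrees of freedom). Two-sided p-values were adjusted (Benjamini-Hochberg) within a comparison, over 22746 probe sets. Intervals are 95% and n is 3 pairs. The script was tested on simulated data.

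The members, gene lists, families and tests were chosen with earlier results of these data known. Families came from words in gene names; HISN5B, IGPD, BRK1, PORB and PIFI were removed from them by name after values had been seen. Named genes were the 15 largest rises and 12 largest falls, the 6 smallest p and 6 highest control levels among calls, up to 4 calls per list or family (up to 2 members where none passed), all members of short lists and all named calls between elicitors. Genes grouped by role alone were chosen after values were seen. Alternatives were: no block, trend and robust settings, unmoderated variance, a minimum mean of 5 log2, the 2 groups alone, equal medians, spike-in scaling (27 probe sets), a 2-fold minimum and arrays left out.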

Additional observations from a re-analysis of the deposited data

How the results depend on the processing

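The count of calls against control (1966) was 1794 with no replicate block, 791 with a 2-fold minimum, 1006 with unmoderated variance and 998 after spike-in scaling with unmoderated variance. It ranged from 651 to 1808 when arrays or whole replicates were left out, and was 1290 without replicate 2 of both groups, an alternative chosen after seeing the data. Against chitin (4 calls) it was 0 with unmoderated variance, with those 2 groups alone and after spike-in scaling in limma (1238, 1216 and 576 at an unadjusted p under 0.05), 1 with a minimum mean, and 0 to 90 with arrays left out. Against OGs (10 calls) it was 19 with no replicate block, 0 under the same 3 settings (1198, 888 and 535 at an unadjusted p under 0.05), 1 with a minimum mean, and 0 to 86 with arrays left out. Same-numbered cellobiose and control arrays deviated from their group means with correlations of 0.592, -0.167 and 0.218 in replicates 1, 2 and 3. Cellobiose replicate 1 gave -0.331 and -0.605 with control replicates 2 and 3. Cellobiose replicate 2 was nearest control replicate 3 (0.375), and cellobiose replicate 3 nearest control replicate 2 (0.574). Same-numbered arrays of these 2 groups were thus nearest each other in replicate 1 only. Deviations within a group of 3 arrays cancel out, so these correlations depend on each other and cannot settle which samples were paired. The chitin and OGs arrays were not compared in this way. Without the block 5 of 71 named rises and 7 of 61 named falls lost their call, among them GTR1 (adjusted p = 0.576). SWEET7 turned from -0.31 to 0.03 after spike-in scaling. Of 132 named calls, 74 passed without each of the 6 arrays in turn, 55 of 71 rises and 19 of 61 falls. The causes were not tested.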

Other observations

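A few genes were highest in replicate 1 of both the control and the cellobiose group. GTR1, a glucosinolate transporter, read 9.57, 7.79 and 7.61 in controls and 10.24, 8.65 and 8.54 with cellobiose, so that the pairs differed by a steady 0.81 ± 0.11 log2 (SE; adjusted p = 0.00196) although the groups overlapped. UGT74B1, of glucosinolate synthesis, read 10.48, 9.14 and 9.07 against 10.34, 9.57 and 9.39 and did not pass. EXLA1 read 11.68, 9.38 and 9.42 in controls and 11.28, 10.77 and 10.87 with cellobiose, so that pair 1 differed in sign from the others.

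The probe set with the largest rise of all has no named gene and went from 6.96, 5.61 and 5.07 to 12.89, 12.67 and 12.65 (6.86 ± 0.43 log2, SE; adjusted p = 7.2e-05). The one with the largest fall, also unnamed, went from 9.73, 9.94 and 9.91 to 6.73, 4.80 and 7.58 (-3.49 ± 0.76, adjusted p = 0.022). Unnamed probe sets made up 472 of the 1077 rises and 392 of the 889 falls.

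Of 5845 pairs of measured genes next to each other in the RefSeq annotation, 38 had both members higher, 8 both lower and 13 one of each, where 574 of 13333 measured loci were higher and 490 lower. Whether this differs from chance was not tested.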
